A study of Mus musculus with 4 samples.

Results

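The genes described here encode the secreted and membrane-bound metalloproteases that cut extracellular matrix, and the inhibitors that hold them in check. Members were all genes whose symbol is Mmp plus a number, Adamts plus a number, or Timp1 to Timp4, named alone by a probe set of the platform annotation. This gave 35 genes with 68 probe sets, of 18193 genes named on the array: 16 Mmp genes, 15 Adamts genes and 4 Timp genes. The related Mmp1a and Mmp1b, whose symbols end in a letter, were not counted. A gene with several probe sets is represented by the one with the highest mean over the arrays.

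Dermal RNA of the back skin was measured at E15.5 (embryonic day) with Affymetrix whole-genome mouse arrays, on 2 arrays labelled mutant and 2 labelled control. The mutants carried KRT14-Cre and Ctnnb1(Ex3)fl/+. In this design Cre under the keratin 14 promoter acts in surface epithelium, where it removes an exon of Ctnnb1 so that beta-catenin escapes degradation. The controls were littermates, for which the labels give no alleles, and dispase was used to part dermis from epidermis. The series design gives 2 mutant and 2 control embryos. The dermis was thus compared beneath an altered epithelium and was not itself the tissue in which Cre is driven.

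Matrix metalloproteases (MMPs) are made as inactive precursors and need a zinc ion to cut. Together they degrade collagens, gelatin, laminins and proteoglycans. The ADAMTS enzymes are secreted relatives with thrombospondin repeats, among them proteases of versican and aggrecan and the procollagen N-propeptidases. TIMPs bind the active site of MMPs and block it, and Timp3 also inhibits several ADAMTS enzymes. In embryonic skin such enzymes open and remodel the dermal matrix as hair follicles and vessels grow.

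Ctnnb1 gave 4838 and 4397 on mutant 1 and mutant 2 and 5335 and 4721 on control 1 and control 2, which does not check the labels, since Cre removes an exon of it in epithelium and not in dermis. The arrays did not group by label. Over the 22519 tested probe sets, the correlation of log2 values was 0.984 between mutant 1 and control 2 and 0.981 between mutant 2 and control 1, against 0.953 between both mutants and 0.955 between both controls. A list of 153 probe sets in the authors' deposited table goes the same way: 96 of its 97 probe sets listed as higher had mutant 2 and control 1 above the other arrays, and for the 56 lower ones those same arrays were the low ones in each case. For 0 of the 153 were both mutant arrays on one side of both control arrays by the labels as given. Mutant 1 gave male signals (Kdm5d 224 there, 5.81 or less elsewhere) and the other arrays female ones. The arrays were scanned on 1 day in the order control 2, mutant 1, control 1 and mutant 2, on fluidics modules 1, 2, 3 and 4, so the arrays of a crossed pair were neighbours in that order, whose part in the results was not tested. In the scanner files the tissue is entered as epidermis, while the labels say dermis. Whether each array carries its own label cannot be told from these files, and if 1 mutant and 1 control label were exchanged, every difference by label given here would change. Directions below are those of the labels as given, and the crossed pairs, mutant 2 with control 1 and mutant 1 with control 2, are given only as a description because that pairing was seen in these data first.

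The dermal label was checked with Col1a1, Col3a1, Dcn and Lum, whose signals were 3878 to 8886 on every array. The 8 epidermal markers summed to 3830 on mutant 1 and 776 on mutant 2, and to 708 and 901 on control 1 and control 2, so epidermal signal was highest on mutant 1. Markers of other tissues also differed between arrays, as given beside the genes they move with. Col3a1, Dcn and Lum were chosen after their values were seen.

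Much of the Mmp family lies in a single run of genes. In the RefSeq table of assembly GRCm38.p6, 10 Mmp genes follow each other on mouse chromosome 9 with no other protein-coding gene between them, and 7 of the members are among them (Mmp3, Mmp7, Mmp8, Mmp10, Mmp12, Mmp13 and Mmp20). Of these 7, only Mmp13, which encodes collagenase-3, reached a signal of 100 on any array. Promoter sequence was matched for 21 of the 35 members, of which 3 have several starts. A member was counted if any of its starts held a motif, while the shares over all promoters count each start singly. The member shares are thus raised somewhat against those of all promoters. The AP-1 motif TGANTCA, the site of Fos and Jun proteins, was searched on both strands of the 250 bases before each start. It was found in 6 of the 21 (Mmp3, Mmp7, Mmp10, Mmp12, Mmp13 and Mmp20), which is 28.6%, while 6.75% of all 32851 promoters in the table hold it. All 6 lie in the run on chromosome 9.

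The 120 bases before the start are shown for these 6 genes because they share the motif, which stands in capitals. Mmp8, the other member of the run, has a promoter in the table without it. The sequences are from RefSeq (GRCm38.p6, plus strand): Mmp3 at chr9:7445702-7445821, Mmp7 at chr9:7691970-7692089, Mmp10 at chr9:7502222-7502341, Mmp12 at chr9:7347254-7347373, Mmp13 at chr9:7272394-7272513 and Mmp20 at chr9:7628111-7628230. For Mmp7 and Mmp12 the table holds 2 starts, and the one with the motif is shown. All are upstream of the annotated start, 5′ to 3′.
Mmp3: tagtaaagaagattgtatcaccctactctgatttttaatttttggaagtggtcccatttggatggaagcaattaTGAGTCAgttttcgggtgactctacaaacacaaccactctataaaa
Mmp7: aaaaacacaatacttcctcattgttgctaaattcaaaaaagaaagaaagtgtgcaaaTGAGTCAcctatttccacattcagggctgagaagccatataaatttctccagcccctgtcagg
Mmp10: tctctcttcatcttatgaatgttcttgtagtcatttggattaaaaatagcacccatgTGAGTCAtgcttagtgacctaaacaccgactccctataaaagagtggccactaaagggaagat
Mmp12: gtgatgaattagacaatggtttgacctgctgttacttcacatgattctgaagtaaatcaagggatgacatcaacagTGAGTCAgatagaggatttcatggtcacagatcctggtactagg
Mmp13: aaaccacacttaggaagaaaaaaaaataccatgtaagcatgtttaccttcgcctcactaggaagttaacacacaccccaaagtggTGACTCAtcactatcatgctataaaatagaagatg
Mmp20: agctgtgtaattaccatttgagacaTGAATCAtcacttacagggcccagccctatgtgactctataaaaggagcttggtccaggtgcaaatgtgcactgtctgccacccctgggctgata
The motif began between positions -95 (Mmp20) and -35 (Mmp13), counted from the base before the start as -1. A TATAAA match lay downstream of it in Mmp3, Mmp7, Mmp10, Mmp13 and Mmp20.

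A further 3 windows are shown for contrast, from members described below. They are Mmp14 at chr14:54431478-54431597 on the plus strand, Timp4 at chr6:115252206-115252325 on the minus strand and Adamts20 at chr15:94404351-94404470 on the minus strand (RefSeq, GRCm38.p6). In Mmp14 and Adamts20 the capitals mark GGGCGG, the GC box, on either strand. In Timp4 they mark the Ets motif AGGAAG, which lies on the opposite strand.
Mmp14: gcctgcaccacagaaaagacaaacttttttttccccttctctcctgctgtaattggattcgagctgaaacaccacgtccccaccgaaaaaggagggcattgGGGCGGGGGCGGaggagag
Timp4: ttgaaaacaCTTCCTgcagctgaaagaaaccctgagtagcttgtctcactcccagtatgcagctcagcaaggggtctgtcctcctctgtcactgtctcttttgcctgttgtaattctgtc
Adamts20: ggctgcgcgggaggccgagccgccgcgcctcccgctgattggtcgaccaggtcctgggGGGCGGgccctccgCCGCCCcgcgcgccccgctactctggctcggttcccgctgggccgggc
GGGCGG was found in 11 of the 21 members with a promoter (52.4%) and in 32.7% of all promoters, and TATAAA in 6 (28.6%) against 12.4%. AGGAAG was found in 10 (47.6%) against 29.5%, the Tcf/Lef motif CTTTGAN in 1, Mmp7 (4.76%), against 13.8%, and the Runx motif ACCACA in 4 (19.0%) against 14.0%. No matches of different motifs overlapped in the members. A match shows letters only, and neither binding nor use of the site was measured.

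**Figure D1:**
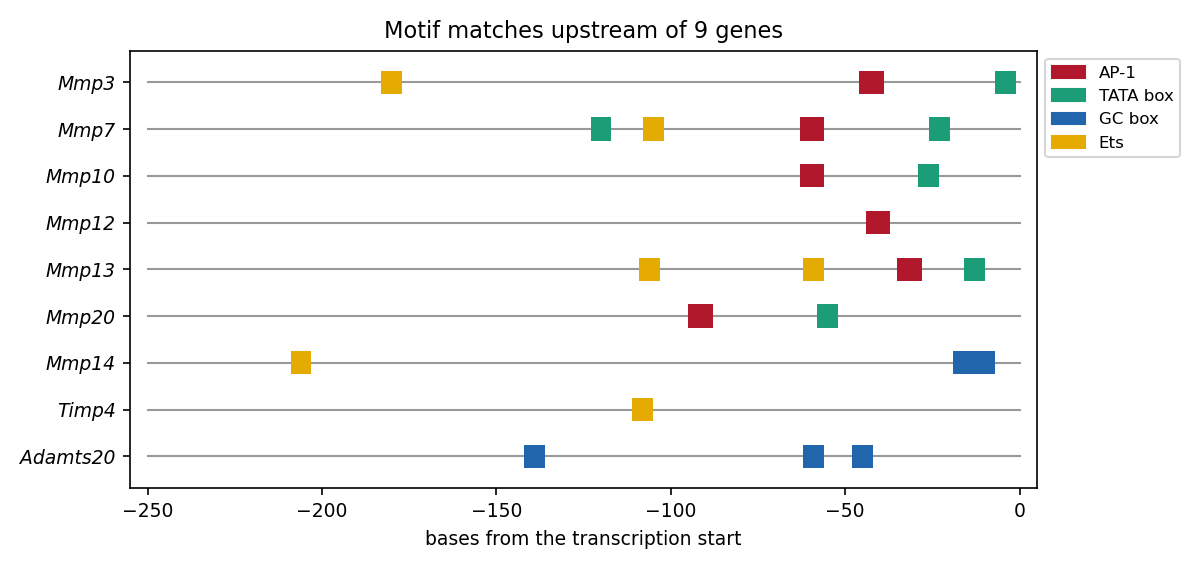
Positions of motif matches in the 250 bases before the start of 9 genes; the horizontal axis is bases from the transcription start and each coloured block is a match on either strand, with AP-1, TATA box, GC box and Ets drawn. The 6 genes at the top, all from the run on chromosome 9, have an AP-1 match, and Mmp14, Timp4 and Adamts20 have none.

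Between the labels, no member passed the test. Of the 23 members whose mean log2(signal + 16) reached the median of all probe sets, 0 passed the threshold of 0.05 in limma, all with an adjusted p of 0.9999, and 0 had an unadjusted p under 0.05. Among all 22519 tested probe sets 0% passed after adjustment and 0.924% had an unadjusted p under 0.05. The methods' t-test and fold filter were also run on these signals by the labels as given, at an unadjusted p of 0.01 and a fold of 2. They called 0 members and 3 of the 22519 tested probe sets. The authors' normalization and detection filter, described below, were not repeated, so this cannot tell what their own procedure calls. Their deposited table lists 1 member, Timp4. The median log2 difference of mutant minus control was 0.0565 over the 35 members. Over the 23 tested members it was 0.0964, against -0.00996 over all tested probe sets. For 7 of the 35 members (20%) the mutants did not overlap the controls, against 25.6% of all probe sets and 20.5% of the tested ones. The mutants were above for 3 of the 7 (11.7% of all probe sets, 8.69% of the tested ones) and below for 4 (13.9% and 11.8%). Members were counted by their brightest probe set, and the background by every probe set. The other 12 members had too low a signal to be tested.

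**Figure D2:**
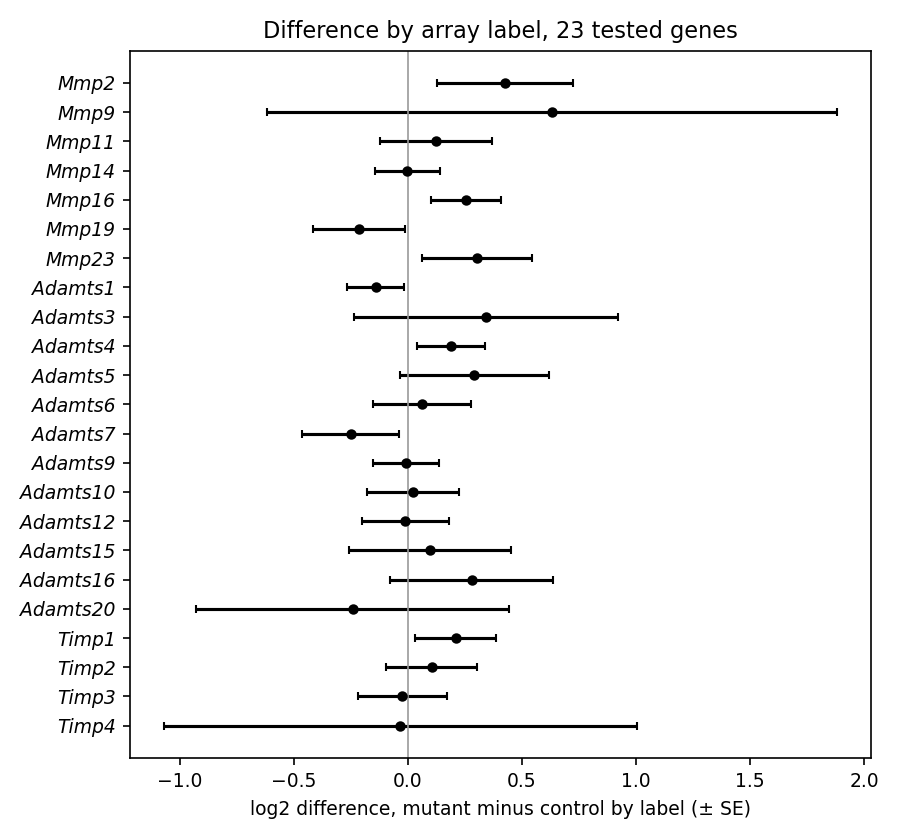
Log2 difference of mutant minus control by array label for the 23 tested genes, on log2(signal + 16); points are differences and bars are moderated standard errors from limma (n = 2 arrays per group). The differences run from -0.25 for Adamts7 to 0.63 for Mmp9, and the widest bars belong to Mmp9, Timp4, Adamts20 and Adamts3.

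By the crossed pairs the members separated more often. Mutant 2 and control 1 both lay on one side of mutant 1 and control 2 for 23 of the 35 (65.7%), against 44% of all probe sets and 50% of the tested ones. They were above for 11 members (23.5% of all probe sets, 26.4% of the tested ones) and below for 12 (20.4% and 23.6%). With a gap of at least 2-fold between the pairs, the count was 6 of 35 (17.1%), against 5.01% of all probe sets and 2.55% of the tested ones. Mmp9, Timp4 and Adamts3 were high on mutant 2 and control 1 (3.1% of all probe sets, 1.58% of the tested ones). Adamts20, Adamts8 and Adamts18 were low there (1.92% and 0.973%). Adamts8 and Adamts18 gave 36.2 or less on every array and were not tested. Mmp9 and Timp4 reached the limit for testing only through mutant 2 and control 1, so their being tested is not independent of the gap. Members were counted by their brightest probe set alone, while the background counts every probe set, so these shares are not like for like. All these counts share the 4 arrays and carry no test.

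**Figure D3:**
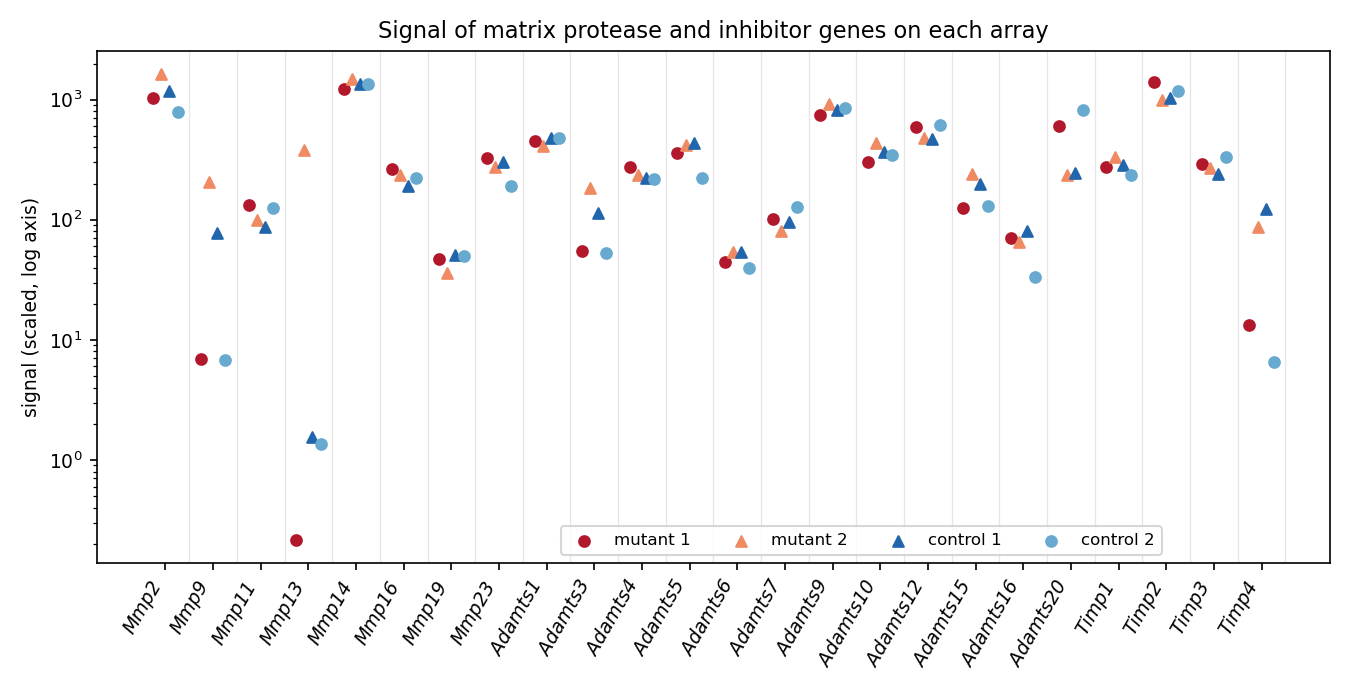
Signal of the 24 members named with values on each array, on a log axis, with triangles for mutant 2 and control 1 and circles for mutant 1 and control 2. The triangles and circles part widely for Mmp9, Timp4, Adamts3 and Adamts20, and Mmp13 is high on mutant 2 alone.

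The gelatinases cut denatured collagen and basement membrane. Mmp9 (gelatinase B, probe set 1416298_at) gave 6.86 and 207 on mutant 1 and mutant 2, and 77.2 and 6.78 on control 1 and control 2. Its lower value on mutant 2 and control 1 was 11.3 times the higher value on mutant 1 and control 2, while its difference by label was 0.63 ± 1.25 (log2, SE, n = 2 per group, limma adjusted p = 0.9999). Each label thus held 1 array with a signal near 7 and 1 well above it. The other probe set of Mmp9, too dim on average to be tested, had the same order, with 4.99 and 122 on the mutants and 61.1 and 2.32 on the controls.

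Mmp9 moved with the bone markers, of which 4 of 7 were measured. Their summed signal was 94.7 and 2710 on mutant 1 and mutant 2, and 607 and 83.2 on control 1 and control 2. Ibsp, bone sialoprotein, gave 17.0 and 1365 on the mutants and 190.1 and 7.97 on the controls, and Alpl gave 31.9 and 208 on the mutants and 128 and 21.9 on the controls. The 8 leukocyte markers summed to 4491 and 5604 on the mutants and 7480 and 3773 on the controls, and 5 of the 8 had mutant 2 and control 1 above the other arrays, as had 3 of the 4 bone markers. The leukocyte sum was highest on control 1, and Mmp9 and the bone sum on mutant 2. The bone markers did not all share that order. Sp7 gave 45.0 and 275 on the mutants and 288 and 52.9 on the controls, highest on control 1. Of the bone sum on mutant 2, 861 came from Col10a1, which gave 0.745 on control 1. Sp7 and Col10a1 were picked after their values were seen. Among the leukocyte markers Lyz2 gave 484 and 846 on the mutants and 1474 and 392 on the controls. Aif1 gave 124 and 129 on the mutants and 129 and 80.5 on the controls. No marker of either list was listed at 0, which does not show that each was present, since detection calls were not used. The hair follicle sum, given below, was also highest on mutant 2 and next on control 1, so this order was not particular to the bone markers. The part of these tissues in the Mmp9 signal was not tested, and in bulk RNA more cells of a type and more RNA per cell cannot be told apart.

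Mmp2, gelatinase A, is a main gelatinase of mesenchyme. It gave 1039 and 1634 on mutant 1 and mutant 2 and 1185 and 788 on control 1 and control 2. Mutant 2 was the highest and control 2 the lowest, and the labels overlapped. The difference by label was 0.43 ± 0.30 (limma adjusted p = 0.9999), positive without any 1 array, and the second probe set of Mmp2 gave nearly the same values (1036 and 1587 on the mutants, 1180 and 790.3 on the controls).

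Mmp13, collagenase-3, is known from hypertrophic cartilage and bone. Its probe set 1417256_at gave 383 on mutant 2, 0.217 on mutant 1 and 1.56 and 1.37 on control 1 and control 2. The gene was thus seen on 1 array, and its mean fell below the limit for testing. Mutant 2 was also the array with cartilage: the 8 cartilage markers summed to 269 and 10128 on mutant 1 and mutant 2 and to 239 and 303 on control 1 and control 2. Col10a1, the collagen of hypertrophic cartilage, which was counted in the bone list and picked after its values were seen, gave 861 on mutant 2 and 0.867 on mutant 1, and 0.745 and 0.480 on the controls. Matn1 and Col2a1, both of cartilage matrix, gave 1284 and 2857 on mutant 2 and 17.2 or less elsewhere. The part of cartilage in the Mmp13 signal was not tested. The difference by label, 2.20 with no test, was -0.11 without mutant 2.

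The membrane-type MMPs act at the cell surface. Mmp14, which activates the Mmp2 precursor with the help of Timp2, gave 1220 and 1495 on the mutants and 1351 and 1354 on the controls, a difference of -0.0018 ± 0.14 (95% interval -0.37 to 0.37). Its controls lay between its mutants. Its other tested probe sets differed: 1416572_at had both mutants below both controls, at 505 and 519 against 593 and 571 (-0.18 ± 0.12, limma adjusted p = 0.9999), and 1440920_at gave 178 and 196 on the mutants and 193 and 169.9 on the controls. Mmp16, another membrane-type enzyme, gave 265 and 234 on the mutants and 193 and 221 on the controls, so both mutants were above both controls, with a difference of 0.26 ± 0.15 (limma adjusted p = 0.9999). Of its other probe sets, 1 of 3 separated the labels.

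Stromelysin-3, encoded by Mmp11 and known from stroma, gave 133 and 99.6 on the mutants and 86.5 and 126 on the controls, higher on mutant 1 and control 2. Mmp19 gave 47.3 and 35.7 on the mutants and 51.1 and 49.7 on the controls. Both mutants were below both controls in each of its 2 probe sets, with a difference of -0.21 ± 0.20 in the brighter one. Mmp23, a membrane-anchored member without the usual hemopexin domain, gave 325 and 277 on the mutants and 300 and 192 on the controls, and its second probe set had both mutants above both controls, at 263 and 252 against 248 and 194. For none of these 3 did the difference by label pass (limma adjusted p = 0.9999).

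The remaining 8 Mmp genes (Mmp3, Mmp7, Mmp8, Mmp10, Mmp12, Mmp17, Mmp20 and Mmp24) stayed dim. With Adamts8, Adamts18 and Adamts19 they make the 11 members given without single values, whose signals ran from 0.400 to 38.5 with a median of 10.3. Detection calls were not used here, so whether such signals exceed the background is not known.

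Among the ADAMTS proteases of versican and aggrecan, Adamts20 showed the widest gap of the tested Adamts genes between the crossed pairs. Loss of Adamts20 causes the white belt of the belted mouse. Probe set 1456901_at gave 599 and 237 on mutant 1 and mutant 2 and 245 and 818 on control 1 and control 2. The lower value on mutant 1 and control 2 was 2.44 times the higher value on mutant 2 and control 1, and the difference by label was -0.24 ± 0.68 (limma adjusted p = 0.9999). The dermal fibroblast markers leaned the same way, with sums of 44134 and 28814 on the mutants and 33808 and 39420 on the controls, and 6 of 8 were lower on mutant 2 and control 1. Twist2, a transcription factor of dermal fibroblasts, gave 2810 and 909 on the mutants and 1196 and 2943 on the controls. Their part in the Adamts20 signal was not tested.

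Adamts5, a main aggrecanase, went the other way. It gave 358 and 416 on the mutants and 436 and 222 on the controls, and all 3 of its tested probe sets had mutant 2 and control 1 on top. Adamts15 gave 125 and 239.6 on the mutants and 199 and 130.3 on the controls, again with mutant 2 and control 1 on top and a gap of 1.53-fold. Adamts9, the relative of Adamts20 that also cuts versican, gave 748 and 917 on the mutants and 817 and 851 on the controls, with the controls inside the range of the mutants. Adamts1 gave 453 and 412 on the mutants and 480 and 476 on the controls, both mutants below both controls, with a difference of -0.14 ± 0.12. None passed by label (limma adjusted p = 0.9999).

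Adamts4, another aggrecanase, is the member whose probe sets disagreed most. The brighter one (1452595_at) gave 277 and 234 on the mutants and 223 and 220 on the controls, a difference of 0.19 ± 0.15. The other (1455965_at) gave 59.6 and 53.7 on the mutants and 104 and 118 on the controls, a difference of -0.80 ± 0.18 with an unadjusted p of 0.00623 and a limma adjusted p of 0.9999. Both separated the labels, in opposite directions, so no direction can be given for the gene.

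Adamts3, a procollagen N-propeptidase, gave 55.3 and 183 on the mutants and 113 and 52.6 on the controls. Mutant 2 and control 1 were at least 2.04 times as high as the other arrays, and the difference by label was 0.34 ± 0.58 (limma adjusted p = 0.9999). A probe set that the authors' deposited table names Adamts2, the other propeptidase of skin collagen, gave 444 and 204 on the mutants and 189 and 455 on the controls. Its direction over the crossed pairs is opposite to that of Adamts3. The authors' deposited table lists it at 0.332, as lower in mutant, while by the labels as given its mutants overlapped its controls. The platform annotation used here gives no gene for that probe set, so it is no member.

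Adamts7 and Adamts12, both known to cut the cartilage protein Comp, leaned to mutant 1 and control 2. Adamts7 gave 101 and 81.1 on the mutants and 96.2 and 127 on the controls, and Adamts12 gave 590 and 483 on the mutants and 470 and 615 on the controls. The microfibril-associated Adamts10 and its near relative Adamts6 leaned to mutant 2 and control 1, at 303 and 435 on the mutants and 367 and 348 on the controls for Adamts10. Adamts6 gave 44.5 and 53.4 on the mutants and 53.4 and 39.4 on the controls. Adamts16 gave 70.8 and 65.2 on the mutants and 80.9 and 33.4 on the controls, low on control 2 alone in this probe set. Its other probe set, too dim on average to be tested, gave 49.2 and 31.3 on the mutants and 14.7 and 29.0 on the controls. There control 1 was the lowest and both mutants were above both controls. The gaps between the crossed pairs were 1.22-fold or less for Adamts6, Adamts7, Adamts10 and Adamts12.

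Of the inhibitors, Timp4 had the widest range over the arrays. Probe set 1423405_at gave 13.3 and 87.1 on mutant 1 and mutant 2 and 124 and 6.59 on control 1 and control 2. The lower value on mutant 2 and control 1 was 6.54 times the higher value on mutant 1 and control 2, and the second probe set had the crossed pairs apart on the same side with a gap of 3.67-fold. By label the difference was -0.03 ± 1.04 (limma adjusted p = 0.9999, 95% interval -2.72 to 2.65). The authors' deposited table lists Timp4 at 43.7, as higher in mutant, and Timp4 is the 1 member in that table. By the labels as given its mutants overlapped its controls, so the listed direction is not seen in these signals by label. Since the table was drawn from these 4 arrays, it is not independent of the signals.

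Timp4 moved with the hair follicle markers. The 8 markers summed to 97.8 and 2510 on mutant 1 and mutant 2 and to 1961 and 103 on control 1 and control 2, with Krtap8-1 at 3.21 and 1369 on the mutants and 1237 and 8.01 on the controls. Tchh gave 23.6 and 397 on the mutants and 127 and 42.0 on the controls. None was listed at 0, which does not show presence, and only 4 of the 8 were bright enough to be tested. Of the 8, 6 had mutant 2 and control 1 above the other arrays. Timp4 was highest on control 1 and the follicle sum on mutant 2. The bone sum, given above, was also higher on mutant 2 and control 1 than on the other arrays. The part of follicle cells in the Timp4 signal was not tested.

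The other inhibitors varied less between arrays. Timp2, the partner of Mmp14, gave 1401 and 997 on the mutants and 1027 and 1175 on the controls, a difference of 0.10 ± 0.20 (95% interval -0.41 to 0.62). Of its 5 tested probe sets, 3 had mutant 2 and control 1 below the other arrays and 1 had both mutants above both controls. Timp3, which binds to matrix and also inhibits several ADAMTS enzymes, gave 291 and 268 on the mutants and 241 and 336 on the controls, with mutant 2 and control 1 below the other arrays in all 4 of its probe sets. Timp1 gave 273 and 334 on the mutants and 288 and 234 on the controls, a difference of 0.21 ± 0.18. All 3 split by the crossed pairs, Timp1 towards mutant 2 and control 1 and Timp2 and Timp3 towards mutant 1 and control 2, but by 1.05-fold to 1.14-fold, and none passed by label (limma adjusted p = 0.9999).

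**Figure D4:**
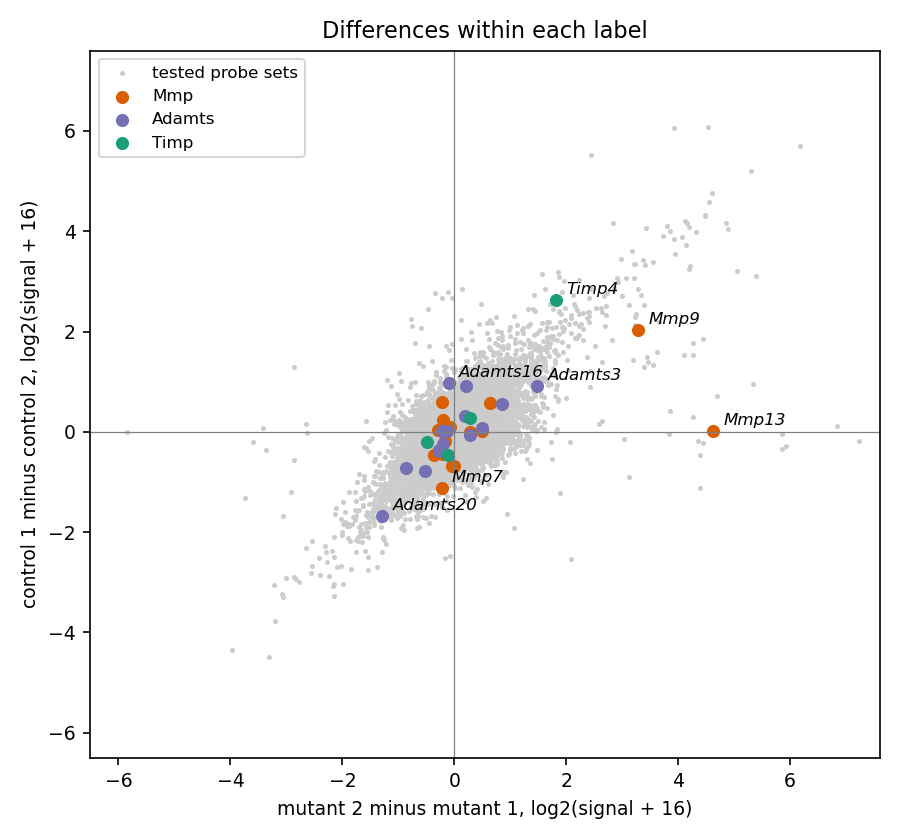
Difference of mutant 2 minus mutant 1 (horizontal) and of control 1 minus control 2 (vertical), both on log2(signal + 16), for the 22519 tested probe sets in grey and the 35 members in colour by family. Timp4, Mmp9 and Adamts3 lie to the upper right and Adamts20 to the lower left, while Mmp13 lies on the horizontal axis.

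Within each label, some members differed between the arrays in the same direction. Timp4 and Mmp9 were higher on mutant 2 than on mutant 1 and on control 1 than on control 2. Their low signals, 6.59 to 13.3, are not known to exceed the background, so no size is given for these differences and the gaps between crossed pairs given above for both genes have the same limit. Adamts3 was 3.31 times as high on mutant 2 as on mutant 1 and 2.15 times as high on control 1 as on control 2. Adamts20 was 2.53 times as high on mutant 1 as on mutant 2, and 3.33 times as high on control 2 as on control 1. The differences had the same sign in both labels for 25 of the 35 members (71.4%). Among the 23 tested members they did so for 16 (69.6%), against 60.4% of the tested probe sets. Mmp13 was the exception in size, far apart between the mutants and nearly equal between the controls.

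Where a member had over 1 tested probe set, the agreement between its tested probe sets was mixed. Of 10 such genes, 3 (Adamts5, Mmp2 and Timp3) had the crossed pairs apart on the same side in all their tested probe sets, and 4 had them overlapping in all. The sign by label was the same in all tested probe sets for 5 of the 10.

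**Figure D5:**
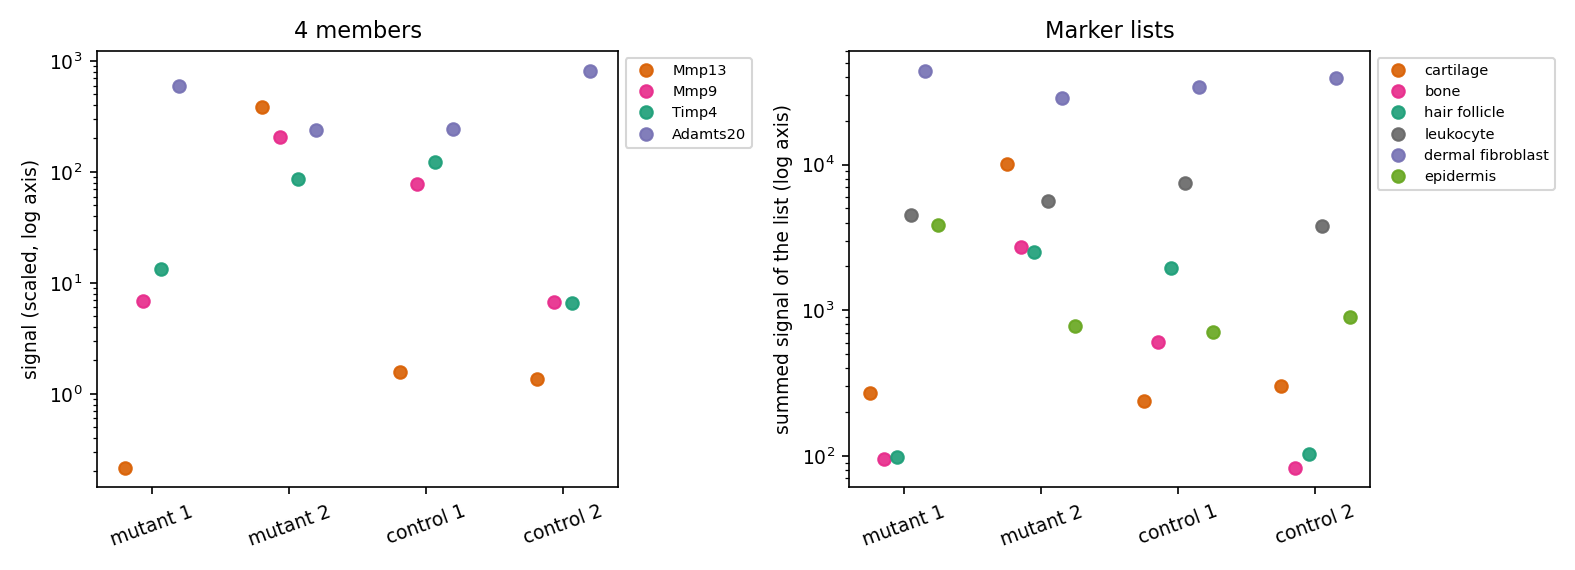
Signal of Mmp13, Mmp9, Timp4 and Adamts20 on each array (left) and summed signal of 6 marker lists on each array (right), both on log axes, with points set side by side within an array. Mmp13 and the cartilage list are high on mutant 2 alone, and Mmp9, Timp4 and the bone and hair follicle lists are high on mutant 2 and control 1.

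Other genes of matrix proteolysis were taken from 8 lists: activators, other inhibitors, ADAMTS-like proteins, ADAM proteases, procollagen C-proteases and their relatives, other matrix proteases, proteoglycan substrates and endocytic receptors. Of their genes 59 were measured and 43 tested, and 0 passed by label in either direction in limma, with 0 at an unadjusted p under 0.05. By list, 0 of 6 activators, 0 of 5 other inhibitors, 0 of 5 ADAMTS-like proteins, 0 of 8 ADAM proteases, 0 of 3 procollagen proteases and enhancers, 0 of 10 other matrix proteases, 0 of 4 substrates and 0 of 2 receptors passed. Mutant 2 and control 1 lay on one side of the other arrays for 35 of the 59 (59.3%), where 44% of all probe sets did, and with a 2-fold gap for 8 (13.6%), where 5.01% did. These genes too were counted by their brightest probe set, and the background by every probe set, so the shares are not like for like. Among the 8, Bcan, Mep1b and Tll1 were too dim to be tested. Of the 43 tested genes 25 (58.1%) lay so, against 50% of the tested probe sets, and 5 (11.6%) with a 2-fold gap, against 2.55%. Of these 5, Pcolce2 and Adamtsl3 reached the limit for testing only through mutant 2 and control 1, where they were high. Their place among the tested genes is thus not independent of the gap.

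Among the activators, the proprotein convertases Pcsk5 and Pcsk6, which trim precursors such as those of MMPs and growth factors, went opposite ways. Pcsk5 gave 195 and 576 on the mutants and 637 and 217 on the controls, and the authors' deposited table lists 2 of its probe sets, at 3.795 and 3.64. In each of these 2 the mutants overlapped the controls by the labels as given. Pcsk6 gave 342 and 148 on the mutants and 138 and 501 on the controls, a difference by label of -0.22 ± 0.68. Plaur, the urokinase receptor, gave 149 and 81.2 on the mutants and 102 and 177 on the controls, a difference of -0.25 ± 0.37. Pcsk6 and Plaur were thus high on mutant 1 and control 2, like Adamts20.

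Reck, a membrane inhibitor of MMPs, gave 1480 and 977 on the mutants and 1118 and 1746 on the controls (-0.21 ± 0.30), and Cst3, which blocks cathepsins, gave 1786 and 1962 on the mutants and 2180 and 1396 on the controls (0.10 ± 0.24). The serine protease Htra1 gave 1394 and 567 on the mutants and 347 and 1566 on the controls (0.26 ± 0.80), and Htra3 gave 271 and 316 on the mutants and 235 and 186 on the controls (0.45 ± 0.18). Htra3 separated the labels while Htra1 separated the crossed pairs. Ctsk, the collagen-cutting cathepsin, was also higher on mutant 1 and control 2, at 1160 and 524 on the mutants and 577 and 1119 on the controls, and was picked after its values were seen.

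Pcolce2, an enhancer of procollagen processing, gave 11.5 and 329 on the mutants and 104 and 10.1 on the controls (0.80 ± 1.37), the pattern of Mmp9. Bmp1, the procollagen C-proteinase it aids, gave 497 and 476 on the mutants and 420 and 468 on the controls (0.13 ± 0.13). The proteoglycan Acan and the matrix protein Comp gave 612 and 746 on mutant 2 and 19.2 or less elsewhere, like Mmp13. By label, Acan differed by 2.17 ± 1.38 and Comp by 2.55 ± 1.43, and without mutant 2 by 0.0348 and 0.33. Versican, encoded by Vcan and cut by several members, gave 1640 and 2036 on the mutants and 1999 and 1455 on the controls, and was picked after its values were seen.

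The ADAMTS-like proteins, which have no protease domain, included Adamtsl4 with both mutants above both controls (70.4 and 44.6 against 37.6 and 33.9, 0.48 ± 0.24). Adamtsl2 gave 60.1 and 41.8 on the mutants and 31.7 and 45.3 on the controls (0.30 ± 0.25). Adam33 differed by -0.27 ± 0.18 and Adam15 by 0.21 ± 0.25, and the endocytic receptors Mrc2 and Lrp1 by 0.22 ± 0.13 and -0.05 ± 0.17 (log2, SE, n = 2 per group). Each of these genes had a limma adjusted p of 0.9999.

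The remaining marker lists moved in other ways. All 8 epidermal markers were highest on mutant 1. Krt10, Krtdap and Lor gave 1323, 763 and 619 there and 384 or less on the other arrays. The 9 skeletal muscle markers summed to 15667 and 7596 on the mutants and 2772 and 8071 on the controls, with Sln and Tnnc1 lowest on control 1 at 81.4 and 314. Endothelial markers summed to 3961 and 3957 on the mutants and 4756 and 4639 on the controls. Lyve1 gave 1174 and 763 on the mutants and 1382 and 1447 on the controls, and Kdr gave 375 and 435 on the mutants and 473 and 588 on the controls, with limma adjusted p = 0.9999 for each. Pericyte and smooth muscle markers summed to 4699 and 4781 on the mutants and 4511 and 4857 on the controls. In that list Des gave 382 and 164 on the mutants and 70.6 and 191 on the controls, and Cspg4 gave 138 and 248 on the mutants and 131 and 140.4 on the controls. The part of these tissues in any member's signal was not tested.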

How the data were processed

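The authors deposited 1 linear intensity for each probe set and array, and the submitters' processing notes name GCOS and MAS5. Detection calls were not used here. The deposited intensities were already scaled: leaving out the top and bottom 2%, their mean was 150.0 on each of the 4 arrays. An array carries no read depth, so precision is limited by the number of arrays. The authors' deposited table gives a fold, the ratio of mutant to control, after GCRMA, a Present flag on at least 2 of the 4 arrays, a Welch test without correction and a fold of 2, per the file headers. Its 4 columns per embryo were not used.

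The 64 array controls were left out, and 45037 probe sets were kept. Of the 45101 in the table the platform annotation names 1 gene for 34958, several for 932 and none for 9211. All 68 member probe sets matched the GRCm38.p6 gene table by gene number, with 0 symbols changed. Mutant and control were compared with limma 3.58.1 in R 4.3.3 (lmFit, eBayes with an intensity trend, no block, two-sided) on log2(signal + 16), which understates changes of dim genes. Probe sets at or above the median mean log2 value, 5.515, were tested, with Benjamini-Hochberg adjustment over all 22519 and a threshold of 0.05. The script was tested on simulated data. P-values measure the spread between 2 arrays per group.

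Named genes were the tested members, members with a signal of 100 or more on any array, Timp1 to Timp4, and the 2 genes of each related and marker list with the largest difference by label. The members, lists and pairing were chosen with earlier results of these data known. Same-numbered arrays deviated in opposite directions (correlation -0.62 over tested probe sets). That value restates the crossed grouping and cannot tell whether the numbers pair the samples. Alternatives were other pseudocounts, no filter, quantile normalization, the mean over a gene's probe sets, a replicate block, no trend, the methods' t-test and leaving out each array. Ratios were computed in Python 3.11.15 with pandas 2.3.3, and plots drawn with matplotlib 3.10.9.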

Additional observations from a re-analysis of the deposited data

How the results depend on the processing

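No member passed by label under any alternative that was run, and none of the 16 related genes followed did so where single genes were refitted, including the replicate block, which gave 0 of 22519 probe sets. The count of probe sets past the threshold was 0 in limma, between 0 and 1 without 1 array (Xist, without mutant 2), and 3 with the methods' t-test, of which 0 remained after Benjamini-Hochberg adjustment. With the crossed replicate block, chosen after seeing the data, 108 probe sets and 0 members passed. The median over the members stayed between -0.0030 and 0.10 under all alternatives. The count of members with both mutants on one side of both controls was 18 to 25 without 1 array, where fewer arrays need to be in order, and that for the crossed pairs was 27 to 31. The shares over all probe sets were not computed without 1 array, so these counts say nothing particular to the members. The sign by label turned without 1 array for 16 of 24 members followed: Adamts10 (-0.23 to 0.27), Adamts12 (-0.20 to 0.18), Adamts15 (-0.33 to 0.53), Adamts16 (-0.21 to 0.77), Adamts20 (-1.08 to 0.59), Adamts3 (-0.40 to 1.08), Adamts5 (-0.17 to 0.75), Adamts6 (-0.099 to 0.23), Adamts9 (-0.15 to 0.13), Mmp11 (-0.11 to 0.36), Mmp13 (-0.11 to 4.52), Mmp14 (-0.15 to 0.14), Mmp9 (-1.01 to 2.27), Timp2 (-0.14 to 0.35), Timp3 (-0.25 to 0.20), Timp4 (-1.35 to 1.28). It also turned for 8 of 16 related genes: Plaur (-0.63 to 0.13), Pcsk6 (-1.10 to 0.65), Adam15 (-0.096 to 0.52), Pcolce2 (-1.02 to 2.63), Lrp1 (-0.25 to 0.16), Reck (-0.53 to 0.10), Cst3 (-0.22 to 0.42), Htra1 (-0.80 to 1.32). With all 4 arrays, the mean over a gene's probe sets turned Adamts12 (0.11), Adamts4 (-0.31), Adamts9 (0.079), Timp2 (-0.035) and Lrp1 (0.059). Quantile normalization turned Mmp14 (0.00044) and a pseudocount of 1 turned Timp4 (0.21). The cause was not tested beyond the change of setting itself. A block for scan day or fluidics module could not be fitted, since all arrays share 1 day and each has its own module. Signal over background limits the 12 untested members.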

Other observations

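Mmp1a and Mmp1b, neighbours of Mmp3 in the run on chromosome 9, gave 4.84 and 0.252 (Mmp1a) and 5.31 and 6.32 (Mmp1b) on mutant 1 and mutant 2. On control 1 and control 2 they gave 0.405 and 0.309 (Mmp1a) and 0.172 and 1.20 (Mmp1b). None of these signals is known to exceed the background, so no difference is read from them.

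Some related genes that no rule named also split the crossed pairs by over 2-fold and were picked after their values were seen. Adamtsl3 gave 21.7 and 81.6 on mutant 1 and mutant 2 and 82.8 and 19.6 on control 1 and control 2. Tll1, a procollagen C-protease of the Bmp1 family, gave 11.05 and 36.3 on the mutants and 32.7 and 10.8 on the controls. Its mean was below the limit for testing. Adamtsl3 and Tll1 were high on mutant 2 and control 1, as Timp4 was.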
